A study of Mus musculus with 72 samples.

Results

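Bmal1 knockout (KO) epidermis was compared with wild-type (WT) epidermis at time point 3 of 6, with 4 animals on each side. These 8 of the 72 libraries were chosen by the genotype and time point in their labels. All animals were C57BL/6 females of 8 weeks that had been kept under a 12 h light and 12 h dark schedule and then held in darkness for 156 to 176 h. No source used here gives the hour within that span at which time point 3 fell. The tissue was interfollicular epidermis, the skin epithelium between the hair follicles, and total RNA was sequenced. KO animals carried the Bmal1-stopFL allele, in which a removable stop cassette blocks Bmal1 (gene symbol Arntl), and had no Cre. WT animals carried K14-Cre, a Cre recombinase driven by the keratin 14 promoter of basal keratinocytes, and no stop cassette. The groups thus differed in Cre as well as in Bmal1, and these cannot be told apart here. Another genotype (RE) carried both the cassette and K14-Cre, and is used below only for reference.

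The circadian clock is a feedback loop that nearly every cell runs. BMAL1 pairs with CLOCK or NPAS2, binds the DNA letters CACGTG (the E-box) and switches on the Period and Cryptochrome genes, whose proteins then shut the pair down. The pair also drives the REV-ERB repressors Nr1d1 and Nr1d2, the PAR bZIP factors Dbp, Tef and Hlf, and the repressors Ciart and Bhlhe41. REV-ERBs in turn repress Arntl, Npas2, Clock and Cry1, so a missing activator is known to lower some clock genes and to raise others. In the epidermis the clock is known for separating DNA replication, cell division and oxidative metabolism over the day.

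The 8 libraries held 29.0 to 40.5 M counts, and the 72 held 24.5 to 95.0 M. Mitochondrial genes took 2.55 ± 0.156% of counts in WT and 2.36 ± 0.0867% in KO (mean ± SD, n = 4 each; two-sided exact permutation test, p = 0.114, where the smallest possible p is 0.0286). Keratinocyte markers were present in every animal: Krt5 lay between 9298 and 13725 CPM (counts relative to the scaled library total), and Trp63, the transcription factor of stratified epithelium, between 849.5 and 1328 CPM. Among cornified-layer genes, Lor had low counts, at 3.49 to 27.3 CPM in WT and 8.59 to 19.3 in KO. No count was recorded for Flg in any of the 8 libraries. Counting error alone would allow up to 0.074 to 0.104 CPM (3 counts a library). That limit does not cover reads left unassigned, and how reads with several placements were handled is not given. The counts therefore do not show that Flg RNA was absent or that Lor RNA was scarce. In a quasi-likelihood F test (edgeR) across 18538 genes, 1407 (7.59%) had an adjusted p under 0.05 and are referred to as called. Of these, 767 (4.14%) were higher and 640 (3.45%) lower in KO, and 313 (1.69%) differed by at least 2-fold. The median log2 difference over all genes was -0.01, over the called genes that were higher 0.45, and over those that were lower -0.61. On the first principal component of the 8 libraries, WT animal 3 and KO animal 3 lay farthest out, on opposite sides. The total depended on the libraries used: it was 764 without WT animal 3 (412 higher and 352 lower) and 675 in a fit of the 8 libraries alone.

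**Figure D1:**
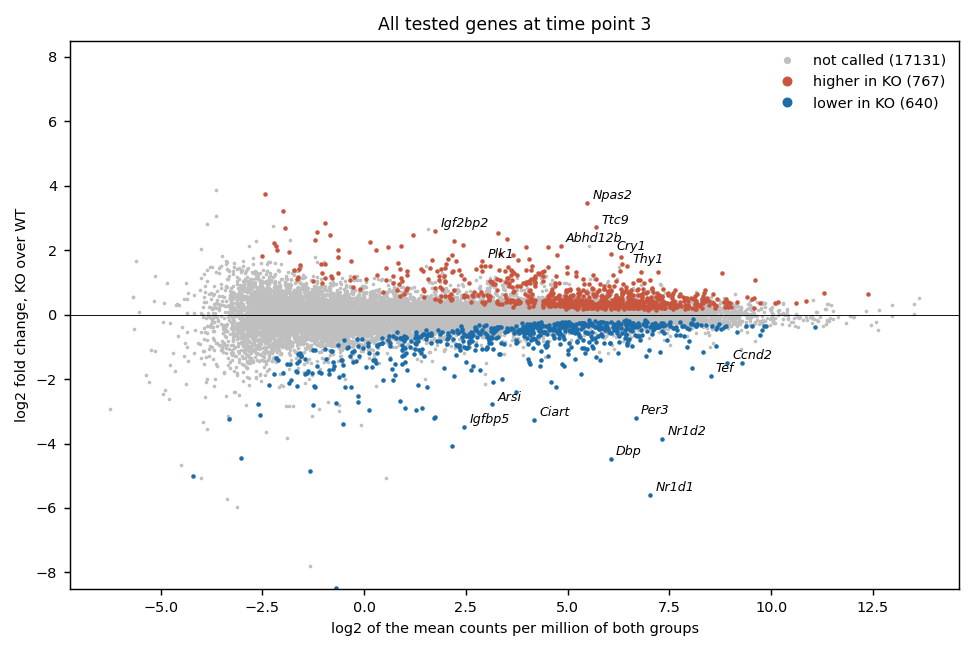
Each point is 1 of the 18538 genes tested, with the log2 of the mean CPM of both groups on the x axis and the log2 fold change of KO over WT on the y axis. The 767 genes called higher and the 640 called lower in KO are coloured; the clock genes Nr1d1, Dbp, Nr1d2 and Npas2 stand among the largest differences at their level.

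The targeted gene, Arntl (chr7:113207465-113314126, plus strand, GRCm38), had 25.7, 18.1, 21.6 and 26 CPM in the WT animals and 30.4, 31.7, 31.6 and 31.5 CPM in the KO animals. Every KO animal thus lay above every WT animal at this time point, with a log2 difference of 0.45 ± 0.16 SE that was not called (adjusted p = 0.0779). The WT mean ran from 22.8 CPM at time point 3, its lowest, to 96.1 CPM at time point 1, while the KO means stayed between 29.0 and 31.6 CPM. At time point 1 KO was lower, with a log2 difference of -1.63 (adjusted p = 5.1e-10). The count of Arntl at time point 3 alone therefore does not check the labels.

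Of the 20 core clock genes, 12 were called at time point 3, 8 lower and 4 higher in KO, against 3.45% and 4.14% of all genes tested, and 16 showed no overlap between the 4 WT and 4 KO animals, against 11.9% of all genes tested. The count was 12 or 13 under every alternative tried. The genes that fell are known outputs of BMAL1, and those that rose include known targets of the REV-ERB repressors.

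**Figure D2:**
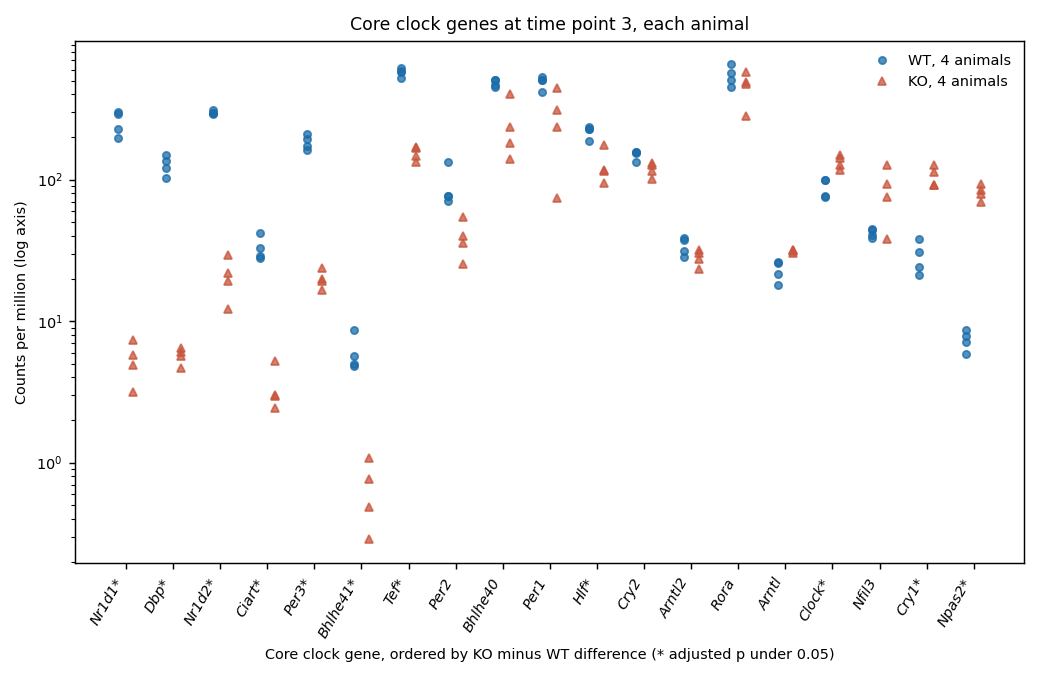
CPM on a log axis of 19 core clock genes at time point 3, with circles for the 4 WT animals and triangles for the 4 KO animals. The genes run from the largest decrease in KO (Nr1d1, 47.9-fold lower) to the largest increase (Npas2, 11-fold higher), and the animals of both groups separate completely in 15 of the 19.

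Both REV-ERB repressors fell, Nr1d1 the furthest of the 20 genes. Nr1d1, which encodes REV-ERB alpha (chr11:98767932-98775333, minus strand), had 289.9, 303, 228 and 196 CPM in WT and 5.8, 4.86, 3.15 and 7.41 CPM in KO. The lowest WT animal was far above the highest KO animal, and the log2 difference was -5.58 ± 0.51 SE, adjusted p = 4.1e-12. Its paralogue Nr1d2 (REV-ERB beta; chr14:18204054-18239127, minus strand) had 298, 295, 309 and 293 CPM in WT and 29.2, 21.9, 12.2 and 19.2 CPM in KO, with KO animal 3 lowest and no overlap (-3.86 ± 0.28 SE, adjusted p = 1.1e-15).

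Among the PAR bZIP factors, which switch on genes through D-boxes, all 3 fell, by very different amounts. Dbp (chr7:45705088-45710203, plus strand) had 122, 148, 135 and 103 CPM in WT and 6.06, 4.65, 5.66 and 6.45 CPM in KO, a 22.3-fold decrease (-4.48 ± 0.49 SE, adjusted p = 1.2e-09). Tef had 525, 610.3, 579 and 587 CPM in WT and 169, 167, 146 and 134 CPM in KO, both tight groups that stood well apart (-1.90 ± 0.20 SE, adjusted p = 4.1e-10). Hlf had 187, 227, 235 and 228 CPM in WT and 177, 114, 95.4 and 117 CPM in KO, so that KO animal 1 came close to the lowest WT animal (-0.80 ± 0.20 SE, adjusted p = 0.0066). Nfil3, the repressor that competes for the same D-boxes, had 38.5 to 45 CPM in WT and a wide 38.3 to 128 CPM in KO and was not called (adjusted p = 0.201).

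The Period genes, which form the repressing arm together with the Cryptochromes, divided. Per3 (chr4:151003652-151044665, minus strand) had 194, 173, 162 and 209 CPM in WT and 23.7, 19.3, 19.95 and 16.6 CPM in KO and fell 9.26-fold (-3.21 ± 0.31 SE, adjusted p = 5.4e-11). Per2 had 70.4, 76.6, 76.2 and 133 CPM in WT and 25.3, 40.0, 54 and 35.8 CPM in KO. Its animals did not overlap, yet WT animal 4 stood apart from the other WT animals, and the difference was not called (-1.20 ± 0.45 SE, adjusted p = 0.0948; 0.0259 in the fit of the 8 libraries alone). Per1, which also answers to stress hormones and other acute signals, had 509, 418, 505 and 532 CPM in WT and 309, 441, 74.6 and 237 CPM in KO. KO animal 2 lay within the WT range and KO animal 3 far below it, and Per1 was not called (adjusted p = 0.222).

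The E-box repressors Ciart and Bhlhe41 fell as well. Ciart, which binds BMAL1 and blocks it, had 29, 27.8, 42.1 and 32.7 CPM in WT and 3.02, 5.25, 2.42 and 2.94 CPM in KO (-3.27 ± 0.38 SE, adjusted p = 8.9e-09). Bhlhe41, which competes for E-boxes, was scarce, at 5, 5.67, 8.67 and 4.81 CPM in WT and 0.486, 0.771, 0.286 and 1.09 CPM in KO (-3.19 ± 0.38 SE, adjusted p = 1e-08). Its paralogue Bhlhe40 had 469, 502, 508 and 449 CPM in WT and 181, 237, 141 and 403 CPM in KO. All KO animals were below all WT animals, but KO animal 4 was close to them, and Bhlhe40 was not called (adjusted p = 0.208).

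On the other side, Npas2, the partner that can stand in for CLOCK (chr1:39193731-39363236, plus strand), had 5.85, 7.17, 7.83 and 8.64 CPM in WT and 92.6, 84.5, 69.2 and 79.7 CPM in KO. This 11-fold increase was the largest of any named gene (3.46 ± 0.35 SE, adjusted p = 1e-10). Cry1 had 21.2, 24, 31 and 38.1 CPM in WT and 92.2, 92.2, 112 and 127 CPM in KO (1.89 ± 0.22 SE, adjusted p = 8.1e-09), whereas Cry2 had 133 to 158 CPM in WT and 101 to 132 CPM in KO and was not called (adjusted p = 0.213). Clock itself had 98.9, 76.5, 74.9 and 98.8 CPM in WT and 141, 149, 117 and 126 CPM in KO, with no overlap (0.61 ± 0.09 SE, adjusted p = 6.6e-06). Rora and Arntl2 overlapped between the groups and were not called (adjusted p = 0.57 and 0.302).

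The promoters of these genes were read from RefSeq's table for GRCm38.p6, which covers 250 bases before to 50 bases after each annotated start and matched 17 of the 20 core clock genes. The E-box was found in 3 of the 8 genes that fell (Ciart, Tef and Bhlhe41) and in Cry1 among the 3 matched genes that rose, against 8.09% of the 27025 genes in the table. The 250 bases before the start are printed for those 4 genes, and for Per3, the gene with the D-box TTANGTAA at 2 places, a motif present in 2.72% of genes. Both strands were searched, the E-box reads the same on both, and capitals mark the matches.
Ciart (chr3:95882229-95882478, minus strand): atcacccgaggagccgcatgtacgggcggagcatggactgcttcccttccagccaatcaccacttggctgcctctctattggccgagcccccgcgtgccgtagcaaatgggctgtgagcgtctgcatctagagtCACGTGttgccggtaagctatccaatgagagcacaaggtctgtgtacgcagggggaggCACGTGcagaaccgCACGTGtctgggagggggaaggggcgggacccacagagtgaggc
Tef (chr15:81802423-81802672, plus strand, the more upstream of its annotated starts): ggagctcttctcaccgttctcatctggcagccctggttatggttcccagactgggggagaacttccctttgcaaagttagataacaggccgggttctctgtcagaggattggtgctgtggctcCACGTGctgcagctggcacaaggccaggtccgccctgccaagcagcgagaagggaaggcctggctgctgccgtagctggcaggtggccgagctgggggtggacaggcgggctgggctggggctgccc
Bhlhe41 (chr6:145865421-145865670, minus strand): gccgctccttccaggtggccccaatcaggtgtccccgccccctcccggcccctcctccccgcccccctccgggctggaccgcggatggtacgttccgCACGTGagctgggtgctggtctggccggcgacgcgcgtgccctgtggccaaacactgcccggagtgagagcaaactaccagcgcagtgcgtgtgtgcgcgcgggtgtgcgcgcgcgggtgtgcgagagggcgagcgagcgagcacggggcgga
Cry1 (chr10:85185055-85185304, minus strand): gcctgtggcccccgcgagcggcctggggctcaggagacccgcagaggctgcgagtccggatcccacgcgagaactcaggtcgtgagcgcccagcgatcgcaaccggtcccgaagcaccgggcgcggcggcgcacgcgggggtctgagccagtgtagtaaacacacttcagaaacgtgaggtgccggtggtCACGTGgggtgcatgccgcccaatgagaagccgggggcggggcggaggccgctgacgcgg
Per3 (chr4:151044666-151044915, minus strand): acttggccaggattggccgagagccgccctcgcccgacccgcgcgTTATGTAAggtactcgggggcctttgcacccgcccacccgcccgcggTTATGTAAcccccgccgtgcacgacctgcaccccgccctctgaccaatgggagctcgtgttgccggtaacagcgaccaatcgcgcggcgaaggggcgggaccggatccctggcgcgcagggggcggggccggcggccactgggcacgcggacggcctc
In Ciart the 3 E-boxes begin 116, 58 and 44 bases before the start. Those of Tef, Bhlhe41 and Cry1 begin 127, 153 and 60 bases before it, and the D-boxes of Per3 at 205 and 158. Nr1d1, Nr1d2, Dbp and Npas2 hold no CACGTG in this window, which says nothing about E-boxes elsewhere in those genes. Tef and Cry1 both hold the motif and moved in opposite directions.

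Time point 3 lay at an extreme of the WT cycle for most of these genes. Of the 20 core clock genes, 9 had their highest WT mean of the 6 time points at time point 3 (among them Dbp, Tef, Nr1d2, Ciart and Bhlhe41) and 4 had their lowest (Arntl, Clock, Npas2 and Arntl2). Dbp stayed between 4.97 and 5.81 CPM in KO over the 6 time points, while the WT mean went from 2.59 CPM at time point 1 to 127 CPM at time point 3. Tef was higher in KO at time point 1 (log2 difference 1.31 ± 0.20, SE) and lower at time point 3 (-1.90 ± 0.20, SE), with KO means of 164 and 154 CPM.

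**Figure D3:**
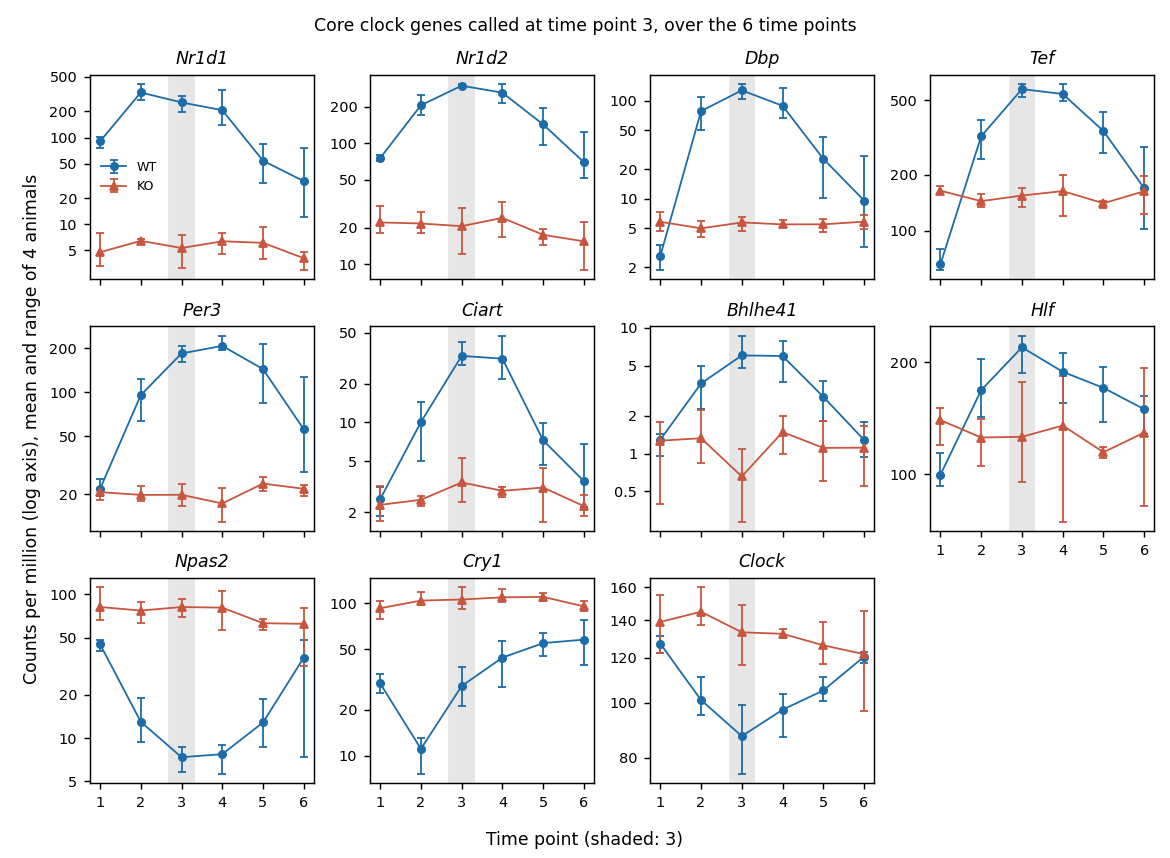
Mean CPM on a log axis at the 6 time points, with bars from the lowest to the highest of 4 animals, for WT (blue circles) and KO (red triangles) in 11 core clock genes called at time point 3. The WT curves of Dbp, Tef, Nr1d2, Ciart, Hlf and Bhlhe41 are highest and those of Npas2 and Clock lowest in the shaded time point 3; the KO curves of Dbp, Tef and Per3 move little.

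The difference at time point 3 was then tested against the mean difference of the other 5 time points, in the same model. Of all genes, 106 (0.572%) were called, among them 8 core clock genes: Dbp (-2.52 ± 0.49 SE, adjusted p = 0.00414), Bhlhe41 (-2.18 ± 0.40 SE, adjusted p = 0.00215), Tef (-1.31 ± 0.21 SE, adjusted p = 0.00031), Arntl (1.27 ± 0.18 SE, adjusted p = 2.4e-05), Ciart, Npas2, Per3 and Nr1d2. For the last 4 the adjusted p lay between 0.0234 and 0.0499. These calls depended on time point 1. Without it 18 genes were called, and of the core clock genes only Arntl and Bhlhe41. The count over all genes also moved with single libraries, from 20 without WT animal 2 to 362 without WT animal 1, and of the core clock genes Arntl, Dbp, Tef and Bhlhe41 were called whichever of the 8 libraries was left out.

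Outside the clock, the genes that differed most from the other time points by p were Ttc9, Rps27rt, Prag1, Leo1, Gcn1l1, Fam76a, Ctsh and Fam234b. Ttc9, which encodes a tetratricopeptide repeat protein (chr12:81631249-81667557, plus strand), had 14.4, 14.4, 12.7 and 13.9 CPM in WT and 102, 92.5, 78.3 and 88.6 CPM in KO. It had the smallest p of all genes at time point 3 (log2 difference 2.71 ± 0.17 SE, adjusted p = 1.6e-18), and its difference exceeded that of the other times by 1.23 ± 0.18 SE, adjusted p = 2.5e-05. Prag1, a scaffold of tyrosine kinase signalling, had 9.84 to 15.5 CPM in WT and 33.9 to 52.2 CPM in KO (1.84 ± 0.16 SE, adjusted p = 1.3e-12). Leo1, a subunit of the PAF1 complex that travels with RNA polymerase II, had 14.9, 11.9, 12.8 and 15.2 CPM in WT and 27.9, 28.1, 27.1 and 30.8 CPM in KO (1.06 ± 0.11 SE, adjusted p = 4.7e-10). The KO mean of Leo1 at time point 3 was 28.5 CPM against 25.1 CPM at time point 1, while WT went from 13.7 to 25.8 CPM. Fam234b was 2.09-fold higher in KO at time point 3 and differed by 0.07 log2 units at time point 1, whereas Ttc9 was also higher in KO at time point 1, by 0.81 log2 units (adjusted p = 0.00206). Lower in KO were Fam76a (-0.59 ± 0.07, SE) and Ctsh, the lysosomal protease cathepsin H (-0.34 ± 0.08, SE). Gcn1l1, a ribosome-bound activator of the amino acid stress response, was higher (0.34 ± 0.06, SE). Rps27rt is a retrogene copy of a ribosomal protein gene, so its counts (-0.40 ± 0.12, SE) are uncertain. Without time point 1 the adjusted p of this comparison was 0.0757 for Fam76a and 0.0971 for Fam234b. The call of Rps27rt between KO and WT at time point 3 itself was lost, by adjusted p, without single libraries (0.0646 to 0.134 without WT animals 2 or 3 or KO animals 2 or 4). That call was also lost with the 8 libraries alone for Rps27rt (0.157), Gcn1l1 (0.12) and Ctsh (0.0612), by adjusted p.

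Of 32 genes of mitosis, 15 rose in KO, against 4.14% of all genes tested, and 17 were not called (24 rose in DESeq2, and 31 had an unadjusted p under 0.05 in edgeR, against 21% of all genes), and all 32 log2 differences were positive, from 0.50 to 1.66 with a median of 1.12. Plk1, the kinase that drives entry into and passage through mitosis, had 2.99, 3.27, 4.9 and 3.11 CPM in WT and 5.93, 7.59, 16.2 and 15.4 CPM in KO (1.66 ± 0.38 SE, adjusted p = 0.003). Every KO animal lay above every WT animal, and KO animals 3 and 4 were well above 1 and 2. Kif2c, a kinesin that takes microtubules apart at kinetochores, showed the same order, with 3.98, 3.74, 4.3 and 3.3 CPM in WT and 5.97, 8.33, 15.2 and 13.6 CPM in KO (1.49 ± 0.36 SE, adjusted p = 0.00516). Ttk, the spindle checkpoint kinase, was even among the KO animals, at 55.4, 55.3, 55.4 and 45 CPM against 28.3, 20.2, 17.4 and 18.1 CPM in WT (1.33 ± 0.26 SE, adjusted p = 0.00047). The other 12 that rose included the mitotic cyclins Ccnb1 and Ccnb2, the spindle kinase Aurka, Cdc20 and Ube2c of the ubiquitin ligase that ends mitosis, and the centromere proteins Cenpa, Cenpe and Cenpf. Ccnb2 had 6.48, 4.3, 7.05 and 4.15 CPM in WT and 8.07, 10.2, 19.8 and 19 CPM in KO (1.38 ± 0.35 SE, adjusted p = 0.00813). Mki67, the proliferation antigen, was not called, at 130.2, 81.5, 107 and 101 CPM in WT and 109.8, 194, 244 and 266 CPM in KO (adjusted p = 0.125).

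The KO animals differed among themselves in these genes. Summed over the 32 genes, WT animals 1 to 4 had 616, 449.8, 655 and 519.8 CPM and KO animals 1 to 4 had 649, 999, 1442 and 1509 CPM. The sum of KO animal 1 lay within the WT range, and a two-sided exact permutation test of the sums gave p = 0.0571 (n = 4 each). KO animal 1 was the lowest of its group in 31 of the 32 genes and lay above every WT animal in 12, whereas KO animals 3 and 4 were above every WT animal in all 32. The count of genes that rose was 4 without KO animal 3, 4 without KO animal 4, 4 without WT animal 4, 5 without WT animal 2 and 25 without KO animal 1, and Plk1, Kif2c and Ttk were called whichever library was left out. The basal keratin Krt14 followed the same order in KO, at 4729.6, 5457, 7885 and 9016 CPM, against 5404, 7239, 7062 and 5014 CPM in WT, and so did the summed fibroblast markers, at 110.0, 171, 193 and 234 CPM in KO and 105, 134, 139 and 105 CPM in WT. The part of either in the mitosis result was not tested. In bulk samples a change in the number of cells of a type or state and a change in RNA per such cell cannot be told apart, here and in the results that follow.

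**Figure D4:**
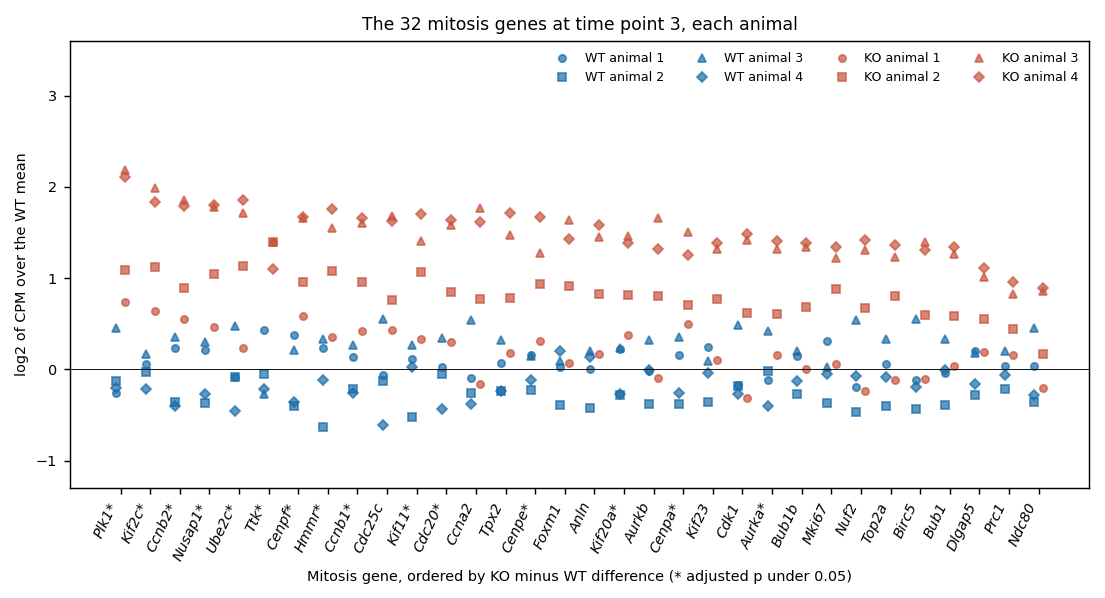
Each point is 1 animal at time point 3, given as the log2 of its CPM over the WT mean of the gene, for the 32 mitosis genes ordered from the largest difference (Plk1) to the smallest (Ndc80). Blue marks are WT and red marks KO; KO animals 3 (triangles) and 4 (diamonds) lie above all WT animals in every gene, and KO animal 1 (circles) is among the WT animals in most.

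The difference in mitosis genes changed with the time point. The median log2 difference of the list was -1.23 at time point 1 (17 of 32 fell), 0.32 at time point 2, 1.12 at time point 3, 0.34 at time point 4, -0.03 at time point 5 and -0.94 at time point 6 (2 fell and 1 rose). Over all genes, 0.944% were called lower at time point 1, and at time point 6 1.35% lower and 2.1% higher. Tested directly, the difference at time point 3 exceeded that at time point 6 in 28 of the 32 genes, against 0.717% of all genes (1.11% in either direction), and exceeded the mean of the other 5 time points in 5. Both counts rested on single libraries. Against time point 6 the count was 4 without WT animal 2, 16 without WT animal 4, 8 without KO animal 3 and 5 without KO animal 4. Against the other 5 time points it was 0 without WT animal 2, KO animal 3 or KO animal 4, 1 without WT animal 4, 2 without WT animal 3, 9 without WT animal 1 and 21 without KO animal 1. For Plk1 the WT mean was 14.2 CPM at time point 1 and 3.57 CPM at time point 3, and the KO means were 5.38 and 11.3 CPM.

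Mitosis genes are known to be repressed outside the dividing phase through the cell cycle homology region (CHR), with the letters TTTGAA, often near CCAAT boxes. In the same RefSeq table a CHR match on either strand was present in 11 of the 14 matched genes that rose and in 19 of the 25 matched genes of the list, against 20.2% of all genes, and a CCAAT box in 12 of the 14 and 19 of the 25, against 41.1%. The stretch from 120 bases before to 30 bases after the start is printed for 4 of the genes that rose, with both motifs, on either strand, in capitals.
Ttk (chr9:83834569-83834718, plus strand): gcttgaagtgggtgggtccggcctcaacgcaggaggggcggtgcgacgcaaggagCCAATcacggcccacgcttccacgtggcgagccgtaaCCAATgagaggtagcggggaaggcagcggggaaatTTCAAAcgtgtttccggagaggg
Ccnb2 (chr9:70421525-70421674, minus strand): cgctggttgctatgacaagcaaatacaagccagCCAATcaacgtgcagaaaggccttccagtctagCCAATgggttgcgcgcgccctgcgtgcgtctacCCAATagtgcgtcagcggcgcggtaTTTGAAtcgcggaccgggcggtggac
Cenpa (chr5:30666766-30666915, plus strand): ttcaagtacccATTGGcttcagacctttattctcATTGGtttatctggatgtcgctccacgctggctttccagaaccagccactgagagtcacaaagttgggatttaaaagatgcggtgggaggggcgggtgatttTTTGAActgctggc
Cdc20 (chr4:118437314-118437463, minus strand): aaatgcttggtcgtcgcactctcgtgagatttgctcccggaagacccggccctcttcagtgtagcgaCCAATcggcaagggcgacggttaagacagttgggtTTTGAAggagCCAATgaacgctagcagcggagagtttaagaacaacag
The CHR match begins at base 8 of the transcript in Ttk, base 5 in Ccnb2 and base 17 in Cenpa, and 18 bases before the start in Cdc20. In Ttk, Ccnb2 and Cenpa every CCAAT match of the stretch lies upstream of it. In Cdc20 one lies on each side.

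For DNA replication genes most differences were negative, and few passed the test. Of 30 S-phase genes, 1 fell, against 3.45% of all genes tested. In edgeR 13 had an unadjusted p under 0.05, against 21% of all genes, and 8 showed no overlap of animals, against 11.9%. Of the 30 log2 differences, 29 were below 0, with a median of -0.45. The median was 0.06 at time point 1, 0.02 at time point 2, -0.73 at time points 4 and 5 and -0.33 at time point 6. The gene that fell was Gins1, a subunit of the replicative helicase, with 7.47, 7.44, 9.91 and 7.36 CPM in WT and 2.72, 4.27, 5.16 and 6.13 CPM in KO (-0.81 ± 0.25 SE, adjusted p = 0.0289). The call was lost when 1 library was left out, by adjusted p, for Gins1 (0.0749 to 0.146 without WT animal 3 or KO animals 1 or 2). With the 8 libraries alone its adjusted p was 0.0701. Mcm6, another helicase subunit, had 158, 153, 184 and 136 CPM in WT and 65.8, 87.9, 98.5 and 132 CPM in KO and was not called (adjusted p = 0.0634). Summed S-phase levels were 1317 to 1638 CPM in WT and 692 to 1407 CPM in KO, where KO animal 1 was lowest for both cell cycle phases.

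Among 15 regulators of cell cycle entry and arrest, 2 fell, against 3.45% of all genes tested. Both were D cyclins, which carry cells through G1. Ccnd2 had 676, 633, 770.0 and 754 CPM in WT and 238, 231, 263 and 278 CPM in KO, with a wide gap between the groups (-1.49 ± 0.26 SE, adjusted p = 6.4e-05). Ccnd1 had 176, 148, 198 and 178 CPM in WT and 75.1, 73.8, 83.5 and 94.9 CPM in KO (-1.10 ± 0.30 SE, adjusted p = 0.0144; 0.0515 without WT animal 3). The arrest gene Cdkn1a (p21) overlapped between the groups, at 452 to 549 CPM in WT and 487 to 686 CPM in KO (adjusted p = 0.217). Of 26 DNA repair genes, 2 fell, against the same 3.45%, among them Ddb2, which recognises ultraviolet lesions (-0.38 ± 0.12 SE, adjusted p = 0.0329). Single libraries decided the call, by adjusted p, of Ddb2 (0.0594 to 0.119 without WT animals 2 or 4 or KO animals 3 or 4). It was also lost with the 8 libraries alone (adjusted p = 0.0871).

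Among protein-coding genes whose log2 CPM averaged 1 or more and whose groups did not overlap, the largest called decreases outside the clock were Igfbp5, Arsi, Gsdmc, Ddr2, Camkv, Gpnmb and Gadl1. Igfbp5, a secreted binder of insulin-like growth factors (chr1:72857932-72874884, minus strand), had 8.1, 12, 11.8 and 8.24 CPM in WT and 0.713, 0.385, 0.541 and 1.95 CPM in KO (-3.48 ± 0.52 SE, adjusted p = 3.3e-06). Arsi, an arylsulfatase, had 15, 15.2, 17.2 and 14.3 CPM in WT and 1.23, 1.87, 2.9 and 2.97 CPM in KO (-2.78 ± 0.38 SE, adjusted p = 6.2e-07). Ddr2, a collagen receptor kinase, had 41.2, 39.2, 41.7 and 51 CPM in WT and 15.1, 10.3, 2.04 and 8.75 CPM in KO, with KO animal 3 lowest (-2.26 ± 0.60 SE, adjusted p = 0.0107). Gsdmc, a gasdermin, and Gadl1, an enzyme of beta-alanine synthesis, were uneven in WT, where animals 1 and 2 were above 3 and 4. Gsdmc had 32.9, 28.9, 12.7 and 15.7 CPM in WT and 2.24, 4.45, 2.8 and 7.44 in KO, and Gadl1 58, 59.4, 19.1 and 20.4 CPM in WT and 7.98, 8, 13.1 and 8.11 in KO (adjusted p = 0.0245 and 0.0433). Camkv, a kinase-like protein known from neurons, had 4.23 to 5.46 CPM in WT and 0.486 to 2.04 in KO (-2.26 ± 0.37, SE). Gpnmb, a glycoprotein of melanosomes and lysosomes, had 9.9 to 20.3 CPM in WT and 2.16 to 6.16 in KO (-2.08 ± 0.64, SE). With 1 library fewer the adjusted p passed 0.05 for Gsdmc (0.0571 to 0.0827 without WT animals 1 or 2 or KO animals 1, 2 or 3), Ddr2 (0.0566 without KO animal 3), Gpnmb (0.0516 to 0.0969 without WT animals 2, 3 or 4 or KO animals 2, 3 or 4) and Gadl1 (0.0611 to 0.125 without WT animals 1 or 2 or KO animals 1, 2, 3 or 4).

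Under the same limits, the largest called increases outside the clock were Ttc9, Igf2bp2, Slc46a2, Fcgr3, Ankdd1a, Abhd12b, Plxnd1, F3, Osgin1 and Fam124b, and each was called whichever library was left out. Igf2bp2, which binds the mRNA of insulin-like growth factor 2, had 1.41, 0.422, 0.84 and 1.14 CPM in WT and 6.71, 5.57, 4.52 and 6.26 CPM in KO (2.60 ± 0.35 SE, adjusted p = 2.6e-07). Slc46a2, a transporter of bacterial muropeptides, had 2.92, 5.54, 2.99 and 3.27 CPM in WT and 26, 19.8, 16.4 and 13.7 CPM in KO (2.36 ± 0.41 SE, adjusted p = 5.2e-05). Abhd12b, a hydrolase, had 9.16 to 12.1 CPM in WT and 42.1 to 53.1 CPM in KO (2.14 ± 0.26 SE, adjusted p = 2.3e-08). Plxnd1, a semaphorin receptor, rose 4.31-fold, F3, the tissue factor that starts blood clotting, 4.26-fold, and Osgin1, an oxidative stress gene, 3.66-fold. Fcgr3, an antibody receptor best known from myeloid cells, had 1.09 to 1.94 CPM in WT and 6.14 to 8.72 CPM in KO, while the summed myeloid markers were 19 to 37 CPM in WT and 14.3 to 34.6 CPM in KO.

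Igf2 and its neighbour H19 were higher in KO as well. H19, an imprinted RNA next to Igf2 on chromosome 7, had 0.634, 1.58, 5.58 and 3.75 CPM in WT and 9.21, 13.4, 16.6 and 27.8 CPM in KO (2.54 ± 0.53 SE, adjusted p = 0.00103). Igf2 itself was scarce, at 0.282, 0.237, 0.336 and 0.292 CPM in WT and 0.551, 1.13, 0.923 and 1.37 CPM in KO (1.79 ± 0.45 SE, adjusted p = 0.00725). These 2 rose and Igfbp5 fell among 10 tested genes of ageing and senescence, and the other 7, Igf1r included, were not called. Over all genes tested, 4.14% were called higher and 3.45% lower.

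**Figure D5:**
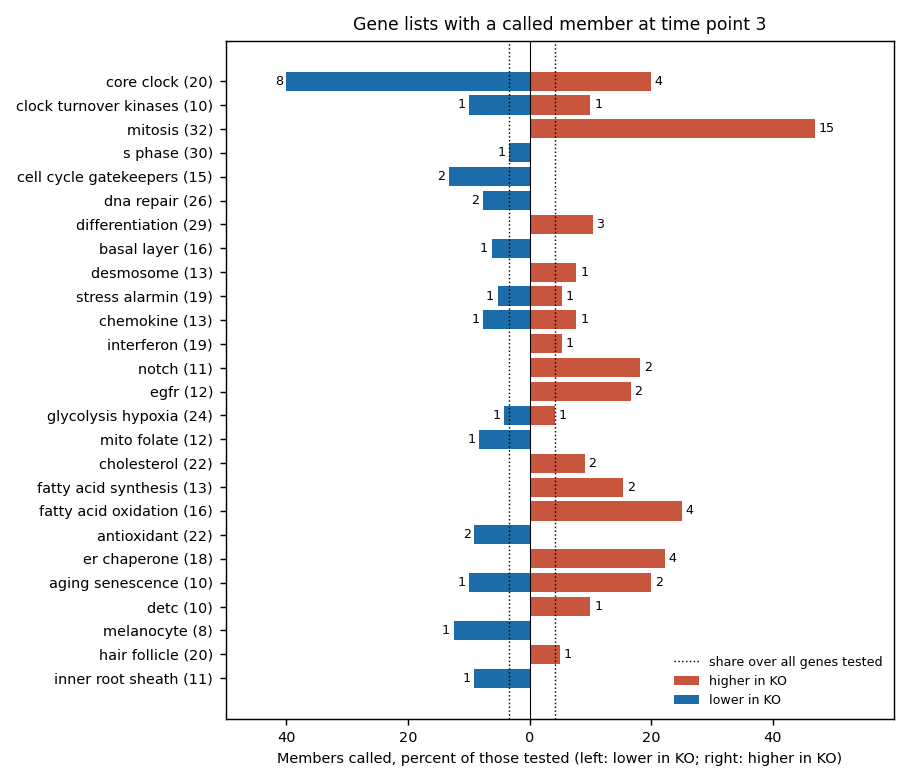
Share of tested members called lower (blue, to the left) or higher (red, to the right) in KO at time point 3 in the 26 gene lists with a called member, with the number called at the bar and the number tested in brackets. Dotted lines mark the shares over all genes, 3.45% lower and 4.14% higher; the core clock on the left and mitosis on the right reach farthest beyond them.

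Over the 41 lists beside the core clock, 44 of 580 distinct genes rose and 16 fell. Without the mitosis genes, 29 of 548 rose (5.29%) and 16 fell (2.92%), beside 4.14% and 3.45% of all genes tested. Of 29 genes of epidermal differentiation, 3 rose, with a median log2 difference of 0.47. Ivl, a scaffold of the cornified envelope, had 32.8, 50.9, 37.4 and 45.4 CPM in WT and 128, 91.6, 96.6 and 74 CPM in KO (1.23 ± 0.33 SE, adjusted p = 0.0129). Krt1, a keratin of the suprabasal layers, had 4659, 4121, 3570.5 and 4277 CPM in WT and 5637, 6476, 6869 and 6998 CPM in KO (0.64 ± 0.21 SE, adjusted p = 0.0475), and its partner Krt10, at 7737 to 11833 CPM in WT and 13085 to 16064 CPM in KO with no overlap, was not called (adjusted p = 0.132). Abca12, the lipid transporter of lamellar granules, overlapped between the groups (146 to 309.7 CPM in WT, 299 to 506 in KO, 0.68 ± 0.21 SE, adjusted p = 0.0365). Of 16 basal-layer genes, Dst, the hemidesmosome linker, fell (305, 449, 674 and 358 CPM in WT, 211, 207, 169 and 212 in KO, -1.16 ± 0.28 SE, adjusted p = 0.00448), and of 13 desmosome genes, Jup, plakoglobin, rose (0.41 ± 0.11 SE, adjusted p = 0.0136). Calls that did not hold without 1 library were, by adjusted p, those of Ivl (0.0507 to 0.0538 without WT animal 3 or KO animal 1), Krt1 (0.0737 to 0.158 without WT animals 2, 3 or 4 or KO animals 2, 3 or 4), Abca12 (0.0897 to 0.224 without WT animals 2 or 3 or KO animals 1 or 2), Dst (0.0595 without WT animal 3) and Jup (0.0624 without WT animal 3). Fitted with the 8 libraries alone, Abca12 had an adjusted p of 0.182.

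Signals that keratinocytes send to immune cells changed in single genes, beside 4.14% of all genes tested called higher and 3.45% called lower. Cxcl14, a chemokine made by resting epithelium, had 242, 309, 290.2 and 176 CPM in WT and 612, 628, 559 and 709.9 CPM in KO (1.30 ± 0.25 SE, adjusted p = 0.00032), and Cx3cl1, fractalkine, fell (55, 67.1, 59.8 and 60.5 CPM in WT, 37.5, 32, 36.3 and 37.7 in KO, -0.76 ± 0.11 SE, adjusted p = 7.9e-07). The other 11 chemokines tested were not called. The alarmin Il33 rose (1.08 ± 0.31 SE, adjusted p = 0.0198) and Il18 fell (-0.76 ± 0.18 SE, adjusted p = 0.0052), out of 19 stress genes. Il18 was scarce, at 0.951 to 1.34 CPM in WT and 0.639 to 0.681 CPM in KO. Ddx58, the RNA sensor RIG-I, was the 1 of 19 interferon-response genes that rose (9.58 to 11.6 CPM in WT, 19.3 to 22 in KO, 0.99 ± 0.16 SE, adjusted p = 2.3e-05). Among growth signals, Notch1 and Notch2 rose out of 11 Notch genes (0.38 ± 0.12 and 0.51 ± 0.15, SE), with overlap between the animals. The ligand Epgn (32.7 to 38 CPM in WT, 74.3 to 200.1 in KO, 1.80 ± 0.51, SE) and the receptor Erbb2 (0.29 ± 0.09, SE) rose out of 12 genes of the EGF receptor family. Leaving out 1 library took the adjusted p above 0.05 for Il33 (0.0509 to 0.059 without WT animals 2, 3 or 4 or KO animal 1), Notch1 (0.0894 to 0.299 without WT animals 2 or 3 or KO animals 1, 2 or 3), Notch2 (0.0609 to 0.172 without WT animals 2 or 3 or KO animals 1 or 2), Epgn (0.0634 to 0.0878 without WT animal 3 or KO animal 4) and Erbb2 (0.0722 to 0.166 without WT animals 2 or 3 or KO animals 1, 2 or 3). The fit of the 8 libraries alone ended the calls, by adjusted p, of Il18 (0.0819), Notch1 (0.266), Notch2 (0.145) and Erbb2 (0.122).

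In metabolism, 4 of 16 genes of fatty acid oxidation rose. Each count in this paragraph stands beside 4.14% of all genes tested called higher and 3.45% called lower. Acadl, which catalyses the opening step on long chains in mitochondria, had 60.8, 65.2, 64.4 and 54.7 CPM in WT and 101, 92, 101 and 103 CPM in KO (0.69 ± 0.11 SE, adjusted p = 5.7e-06). Hadha and Hadhb, both subunits of the trifunctional protein of the later steps, rose together (0.55 ± 0.10 SE, adjusted p = 0.00023, and 0.44 ± 0.11 SE, adjusted p = 0.00617), as did the nuclear receptor gene Ppard (0.38 ± 0.10 SE, adjusted p = 0.0125). Fatty acid synthesis gained Acaca, its committed step (0.52 ± 0.12 SE, adjusted p = 0.00362), and the desaturase Scd2 (1.36 ± 0.39 SE, adjusted p = 0.0186), out of 13 genes. Of 22 cholesterol genes, Dhcr7 (0.66 ± 0.16 SE, adjusted p = 0.00493) and Sc5d (0.75 ± 0.20 SE, adjusted p = 0.0113), both late steps of the pathway, rose, and 20 of the 22 differences were positive. Pfkfb3, which sets glycolytic flux, fell (30.1 to 37 CPM in WT, 11.9 to 15.2 in KO, -1.28 ± 0.30 SE, adjusted p = 0.00381), while Hk1 rose (0.28 ± 0.08 SE, adjusted p = 0.0132), out of 24 genes. Mthfd1l, of mitochondrial folate metabolism, fell (12 to 16 CPM in WT, 3.83 to 7.8 in KO, -1.22 ± 0.31 SE, adjusted p = 0.00679), the 1 called of 12. The call was lost when 1 library was left out, by adjusted p, for Scd2 (0.0575 to 0.0908 without WT animal 3 or KO animal 2), Sc5d (0.056 without WT animal 3) and Hk1 (0.0637 without WT animal 3). In the fit of the 8 libraries alone the adjusted p was above 0.05 for Acaca (0.0742) and Hk1 (0.08). Ppard was not followed through these alternatives.

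Of 22 antioxidant genes, 2 fell: the peroxiredoxin Prdx6 (250.4 to 329.6 CPM in WT, 170.4 to 191 in KO, -0.66 ± 0.10 SE, adjusted p = 3.1e-06) and the mitochondrial superoxide dismutase Sod2 (-0.51 ± 0.10 SE, adjusted p = 0.00024). Of 18 chaperones of the endoplasmic reticulum, 4 rose. The shares called over all genes tested were, here as above, 4.14% higher and 3.45% lower. Hsp90b1 had 293, 279, 308 and 249.9 CPM in WT and 351, 369, 398 and 493 CPM in KO (0.51 ± 0.13 SE, adjusted p = 0.00961). Hyou1 (0.60 ± 0.16 SE, adjusted p = 0.00969), Calr (0.48 ± 0.14 SE, adjusted p = 0.0239) and Pdia4 (0.40 ± 0.12 SE, adjusted p = 0.0245), which fold or hold proteins in the same compartment, showed the same direction, with KO animal 4 highest in each. Single libraries decided the call, by adjusted p, of Hsp90b1 (0.0727 without KO animal 4), Hyou1 (0.0602 without KO animal 4) and Calr (0.0809 to 0.13 without WT animal 4 or KO animal 4). Calr was also lost in the fit of the 8 libraries alone (adjusted p = 0.0521). Pdia4 was not followed through these alternatives. Of 10 genes that tag or modify clock proteins, 2 were called, among them Fbxw11, which rose (0.21 ± 0.07, SE). With 1 library fewer the adjusted p passed 0.05 for Fbxw11 (0.0568 to 0.179 without WT animals 1, 2, 3 or 4 or KO animals 1, 2 or 4). Its adjusted p was 0.158 with the 8 libraries alone. None of 22 respiratory chain genes was called by edgeR or DESeq2 (0 at an unadjusted p under 0.05). None of 15 glucocorticoid targets was called by either tool, with 6 at an unadjusted p under 0.05, against 21% of all genes. Only 3 of the 15 differences were positive, and the median log2 difference was -0.39. Summed levels of the list were 4108 to 5280 CPM in WT and 2825 to 4443 CPM in KO (two-sided exact permutation test, p = 0.0571). Fkbp5 ranged from 8.05 to 88.9 CPM among KO animals alone.

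Markers of other skin cells were read beside these results, with 4.14% of all genes tested called higher and 3.45% called lower. Of 10 markers of the dendritic epidermal T cells, Thy1 rose (43, 41, 60.9 and 38.2 CPM in WT, 84, 113, 128 and 192 in KO, 1.5 ± 0.37 SE, adjusted p = 0.00561), and the other 9, Cd3e and Trdc among them, had negative differences and were not called. None of 9 Langerhans cell markers was called (1 at an unadjusted p under 0.05, 0 in DESeq2). All 9 log2 differences were negative, from -0.60 to -0.24, with a median of -0.37. Their summed level was 389.6 to 637 CPM in WT and 241 to 527 CPM in KO, lowest in KO animal 3. Melanocyte markers summed to 21.2 to 37.3 CPM in WT and 13.9 to 25 CPM in KO, and Mitf fell (-0.49 ± 0.14 SE, adjusted p = 0.0189). Of 11 genes of the inner root sheath of the hair follicle, 1 had a positive log2 difference, and the median was -2.34. In edgeR 6 had an unadjusted p under 0.05, against 21% of all genes. The median was negative at all 6 time points, from -2.79 at time point 2 to -0.96 at time point 6. Their summed level was 407 to 482 CPM in WT and 269 to 546 CPM in KO. The keratin Krt71 was high in WT animal 1, with 10.6 CPM against at most 0.369 CPM in the other 7 animals. In the same list Tchh fell (13.2 to 23.6 CPM in WT, 10.2 to 13.1 in KO, -0.66 ± 0.18 SE, adjusted p = 0.0116). Of 20 hair follicle genes, Msx2 rose (0.57 ± 0.18 SE, adjusted p = 0.034), while 13 of the 20 differences were negative, with a median log2 difference of -0.31, and the summed level was 578 to 685 CPM in WT and 500.3 to 596 CPM in KO. Calls that did not hold without 1 library were, by adjusted p, those of Mitf (0.094 to 0.149 without WT animal 3 or KO animal 3), Tchh (0.0629 without WT animal 1) and Msx2 (0.0511 to 0.151 without WT animals 2, 3 or 4 or KO animals 2, 3 or 4). All 3 calls were also lost with the 8 libraries alone, by adjusted p, in Mitf (0.167), Tchh (0.0612) and Msx2 (0.0888).

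For reference, levels of the RE animals at time point 3, in which K14-Cre is meant to restore Bmal1 in keratinocytes, are given for 2 clock genes. Dbp averaged 22.6 ± 8.07 CPM in RE (SD, n = 4), against 127 ± 19.1 in WT and 5.71 ± 0.772 in KO. Npas2 averaged 23.3 ± 3.83 CPM in RE, against 7.37 ± 1.18 in WT and 81.5 ± 9.78 in KO. No test of RE was made.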

How the data were processed

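Raw read counts per Ensembl gene were deposited, 1 library per animal, for 72 animals. The submitters' processing notes list featureCounts, TopHat2 2.1.1 and Trimmomatic, and name GRCm38 (mm10) as the build. The sources used here do not give the annotation, the strand setting or how the authors handled reads with several placements, so counts of overlapping and near-identical genes are uncertain. GENCODE M21 matched 45229 of 46078 identifiers.

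Genes were kept by filterByExpr (minimum count 10, 18538 genes), scaled by TMM and tested with edgeR 4.0.16 (R 4.3.3) by a quasi-likelihood F test with robust estimation, on all 72 libraries with 18 group means, and Benjamini-Hochberg adjustment over all genes. Standard errors are the log2 difference over the square root of F. Levels are CPM of TMM-scaled libraries. Time point 3 was also tested against the mean difference of the other 5 time points and against time point 6. Alternatives were DESeq2 1.42.0, RLE scaling, no filter, only the libraries compared, a replicate block, and leaving out each library or time point. Counts were simulated for the 18538 genes with independent noise in each gene, and 200 genes were changed in KO at time point 3. Of those changed 1.5-, 2- and 4-fold, 43.3%, 65.7% and 83.3% were called, and 2.29% of calls were false. Variation that many genes share within an animal was not simulated, so these shares cannot be carried over to the 1407 calls. The counts of the 12 replicate pairs differed by far more than sampling noise (chi-square per gene 10.6 to 58.7).

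Named were the core clock genes, the 12 largest called increases and decreases among protein-coding genes (mean log2 CPM of at least 1, no overlap of animals), up to 3 called members of each other list by adjusted p, the 8 genes outside the clock with the smallest p against the other times, and tissue markers. Mcm6, Cdkn1a, Mki67, Ccnb2, Pdia4, Ppard, Fkbp5 and Krt71 and genes named only as list members were chosen after their values were seen. A few genes that this rule or the lists name are not reported here. The members and lists were chosen with earlier results of these data known.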

Additional observations from a re-analysis of the deposited data

Results flagged for a closer look

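In 12 of 194 groups of 4 animals tested, 1 animal stood apart from the other 3 by Dixon's ratio, and chance flags about 5% of groups. In the core clock these were Arntl in KO animal 1 (30.4 CPM, others 31.5 to 31.7), Per2 in WT animal 4 (133 CPM, others 70.4 to 76.6) and Cry2 in WT animal 2 (133 CPM, others 155 to 158). Among the largest changes they were Gadl1 in KO animal 3 (13.1 CPM, others 7.98 to 8.11), and Slc46a2 (5.54 CPM, others 2.92 to 3.27) and F3 (9.12 CPM, others 4.79 to 4.97), both in WT animal 2. In cell cycle genes they were Ttk in KO animal 4 (45.0 CPM, others 55.3 to 55.4), Plk1 in WT animal 3 (4.90 CPM, others 2.99 to 3.27) and Gins1 in WT animal 3 (9.91 CPM, others 7.36 to 7.47). The rest were Dst in KO animal 3 (169 CPM, others 207 to 212), Calr in WT animal 4 (301 CPM, others 351 to 360.0) and Msx2 in WT animal 4 (3.32 CPM, others 5.04 to 5.18).

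The difference between KO and WT at time point 3 departed from the mean of the other 5 time points, in edgeR's test of that difference, in the named genes given here. In log2 units the core clock genes departed by 1.27 (Arntl), 1.49 (Npas2), -1.24 (Per3), -1.13 (Nr1d2), -2.52 (Dbp), -1.31 (Tef), -2.18 (Bhlhe41) and -1.78 (Ciart). The genes outside the clock with the smallest p departed by 1.23 (Ttc9), -0.91 (Rps27rt), 1.01 (Prag1), 0.68 (Leo1), 0.38 (Gcn1l1), -0.42 (Fam76a), -0.47 (Ctsh) and 0.60 (Fam234b). Also called in this test were Plk1 (1.87, adjusted p = 0.0225), Kif2c (1.62, 0.0344), Hyou1 (0.67, 0.0489) and Plxnd1 (1.42, 0.0499).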

How the results depend on the processing

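The 12 core clock calls and 48 of the 81 called named genes held under every alternative run. At time point 3 the number of genes called (1407) was 675 when only the 8 libraries were fitted (373 higher, 302 lower) and 764 to 1463 when 1 library was left out (412 to 726 higher, 352 to 737 lower; 423 lower without WT animal 2), and without the filter on low counts 477 were higher. The 15 mitosis genes became 8 without the filter, 24 in DESeq2, 23 with the replicate block and 4 to 25 when 1 library was left out. The 45 other list members called became 74 with the block and 25 to 47 when 1 library was left out. Against the other 5 time points, 106 genes became 34 without the filter, 320 in DESeq2, 39 in the fit of WT and KO only, 310 with the block, 20 to 362 when 1 library was left out, and 18, 271, 198 and 61 without time points 1, 2, 4 and 5. The 8 core clock genes of that test became 4 without the filter, 5 in the fit of WT and KO only, 2 without time point 1 and 4 to 9 when 1 library was left out. Against time point 6, 206 genes became 105, 382, 121 and 370 without the filter, in DESeq2, in the fit of WT and KO only and with the block, and 68 to 353 when 1 library was left out. Whether replicate numbers paired the animals could not be settled with 4 animals a side. Deviations of same-numbered WT and KO animals correlated at 0.178, -0.276, -0.015 and -0.252, and 0 of 4 WT animals correlated best with their own number. With the replicate block 1968 genes were called at time point 3, and the adjusted p of Arntl was 0.0476, that of Krt10 0.0162 and that of Gadl1 0.0549. Without the filter on low counts the adjusted p passed 0.05 for Gsdmc (0.0505), Gpnmb (0.0637), Gadl1 (0.0846), Fbxw11 (0.119), Ddb2 (0.0529), Abca12 (0.0786), Krt1 (0.097), Notch1 (0.0769), Erbb2 (0.0748) and Msx2 (0.0655), and with RLE scaling for Notch1 (0.0505).

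Among the results run, directions turned for Arntl2, Rora, Krt5, Krt14 and Lor. With 1 library left out, the value against the other time points ran from -0.1371 to 0.0194 for Arntl2 and from -0.2824 to 0.0212 for Rora, and the difference at time point 3 from -0.0753 to 0.1059 for Krt5, -0.0368 to 0.2703 for Krt14 and -0.3266 to 0.7298 for Lor. Krt5 was at -0.0022 without the filter and Lor at 0.2795 with the block. The cause was not tested for any of these shifts. In simulated counts at time point 3, with independent noise in each gene, 43.3% of genes changed 1.5-fold and 83.3% of those changed 4-fold were called.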
